A study of Mus musculus with 16 samples.

Results

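The genes described here were those with their lowest expression in mouse formative stem cells. A gene was taken when its mean level in each of the 3 other cell groups was at least 2 CPM (counts per 1000000 counts of the library) and at least 1.7 times the mean in formative cells, and when the highest formative library lay below the lowest library of any other group. Of 34042 genes in the table, 11011 had the minimum level in all 3 other groups, 60 of these were lowest in every formative library, and 44 met the fold as well. Leaving out Klf5, Tdgf1, Tdgf1-ps1, mt-Atp8 and mt-Nd4l by name gave 39 genes. The genes were thus chosen by their measured CPM in formative against other cells, and those differences are given as description, without a test.

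Bulk RNA sequencing covered 16 libraries of cultured pluripotent cells. Formative stem cells (FS) grew in A3XR medium, with 3 passages of line 5ar1 (10, 12 and 14, FS replicates 1 to 3) and 3 of line 5ar3 (12, 4 and 5, FS replicates 4 to 6). Epiblast stem cells (EpiSC) grew in AF medium (EpiSC_AF, line AF32, passages 13, 14 and 15) or in AFX medium (EpiSC_AFX, line AFX6, passages 12, 5 and 8). Embryonic stem cells (ES) of line E14IV-C grew in 2iL medium (passages 12, 13, 15 and 20). The labels give the media by code only. In the published naming of such media, A stands for activin, F for FGF2 and X for a tankyrase inhibitor that lowers Wnt signalling. R stands for an inhibitor of retinoic acid receptors, and 2iL for inhibitors of MEK and GSK3 with LIF. The digit in A3XR is not explained in the labels, which give no doses, so equal activin across media cannot be assumed. Each line was grown in a single medium, so line and medium cannot be told apart in any comparison of groups, FS included. Outside FS each medium was also represented by a single line. Replicates were passages of a line, so p-values measure the spread between passages. In fits of all libraries with a mean per group, the shared spread also holds the difference between the FS lines. Strain and genotype are not given in the sources used here.

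Pluripotent cells pass through phases. Naive cells resemble the epiblast before implantation and are held there by LIF and by blocking MEK, while EpiSC resemble the epiblast shortly before and during gastrulation and depend on activin or Nodal signalling. The formative phase is placed between them. The genes here had an FS level outside the range spanned by naive cells and EpiSC. In bulk RNA, fewer cells expressing a gene and less RNA per cell cannot be told apart.

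Library totals were 22069338 to 33290250 counts. The mitochondrial rRNA gene mt-Rnr2 took 9.96% to 38.1% of a library, with the highest share in ES replicate 1. The summed level of 11 naive pluripotency genes was 7.42 to 20.6 CPM in FS libraries against 1855 to 3620 CPM in ES. That of 8 formative epiblast genes was 1118 to 2897 CPM in FS against 177 to 451 CPM in ES, and none of these 8 was at 0 in every FS library. Dnmt3b alone averaged 1448 CPM in FS. In EpiSC_AF and EpiSC_AFX the formative sums were 1175 to 1659 and 1350 to 1751 CPM, within the FS range. The naive sums there were 22.5 to 29.4 and 19.3 to 26.2 CPM. They include Klf5, which met the rule and was left out of the 39 genes by name. Klf5 averaged 2.27 CPM in FS, 10.1 CPM in EpiSC_AF and 10.7 CPM in EpiSC_AFX. The naive sums are thus no separate comparison of FS with EpiSC. The naive and formative sums set FS apart from ES, but the formative sum does not set it apart from EpiSC. All 39 genes passed the low-count filter over the 16 libraries, 17 had an FS mean under 2 CPM and 9 an FS mean under 1 CPM, where few counts limit the precision. With library totals scaled by TMM, or without mitochondrially encoded genes, all 39 genes still met the rule, among 54 and 57 genes.

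Of the 39 genes, 34 code for proteins, 2 are long intergenic non-coding RNAs and 3 are annotated pseudogenes. For 30 of them RefSeq (GRCm38.p6) gave 42 promoters of 300 bases, from 250 before to 50 after the start. A search on both strands for 7 short motifs, chosen with these genes known, found the AP-1 motif TGANTCA in 5 of the 42 promoters, or 11.9%. They belonged to 4 of the 30 genes. Of the 9945 promoters of genes with the same minimum expression 4.31% had it, and of all 32851 promoters 7.81%. The matches belonged to Emp1, Plaur, Ifitm3 and Upp1, and these promoters are shown because all 4 genes are described at length below. Capitals mark each match. It lay 145 and 25 bases before the start in Emp1 (chr6:135362681-135362980, + strand), 69 before in Plaur (chr7:24462233-24462532, + strand), 105 before in Ifitm3 (chr7:141010695-141010994, - strand) and 45 before in Upp1 (chr11:9117758-9118057, + strand).
Emp1: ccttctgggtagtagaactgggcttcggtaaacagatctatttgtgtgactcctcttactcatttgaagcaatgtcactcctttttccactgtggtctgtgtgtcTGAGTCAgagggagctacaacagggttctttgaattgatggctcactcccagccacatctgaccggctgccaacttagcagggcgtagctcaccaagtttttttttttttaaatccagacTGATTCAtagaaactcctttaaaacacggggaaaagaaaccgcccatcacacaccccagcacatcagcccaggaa
Plaur: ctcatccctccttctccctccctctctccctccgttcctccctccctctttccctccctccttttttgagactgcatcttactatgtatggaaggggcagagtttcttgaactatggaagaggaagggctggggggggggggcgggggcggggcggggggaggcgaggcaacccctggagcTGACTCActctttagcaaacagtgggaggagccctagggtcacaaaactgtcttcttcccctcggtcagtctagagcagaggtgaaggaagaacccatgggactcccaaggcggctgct
Ifitm3: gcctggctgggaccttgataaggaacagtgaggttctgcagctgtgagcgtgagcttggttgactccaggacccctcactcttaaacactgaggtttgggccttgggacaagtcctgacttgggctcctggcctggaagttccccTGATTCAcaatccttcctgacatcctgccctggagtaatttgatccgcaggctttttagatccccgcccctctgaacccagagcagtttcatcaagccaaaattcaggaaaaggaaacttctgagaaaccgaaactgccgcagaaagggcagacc
Upp1: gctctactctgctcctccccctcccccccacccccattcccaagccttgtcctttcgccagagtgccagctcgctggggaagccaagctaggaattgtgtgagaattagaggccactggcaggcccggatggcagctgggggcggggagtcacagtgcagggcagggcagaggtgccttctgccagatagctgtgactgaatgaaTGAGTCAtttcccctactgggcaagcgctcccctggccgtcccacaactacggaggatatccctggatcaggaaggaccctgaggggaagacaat
A second start of Upp1 shared the same match, so this site counts in 2 of the 5 promoters. The TCF/LEF motif ATCAAAG was in 4 promoters (9.52%), in Nrp2, Serpinb9b, Zfp827 and Zfp951, against 2.44% for expressed genes and 3.73% for all. The FOXH1 motif AATCCACA was in 2 promoters (4.76%), in Gpx4 and Sat1, against 0.452% and 0.855%. The nuclear receptor half-site AGGTCA was in 7.14% against 11.8% and 16.3%, and the TATA letters TATAAA in 4.76% against 6.13% and 13.6%. The SMAD palindrome GTCTAGAC and the ESRRB motif TCAAGGTCA, which contains the half-site, matched 0 of the 42, against 0.231% and 0.271% of promoters of expressed genes. The median GC content was 58.8%, against 61.3% for expressed genes, and the median ratio of observed to chance CpG was 0.65, against 0.78. The motif shares rest on few promoters and were not tested. These matches describe letters, and binding was not measured.

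Across the 39 genes the FS means ran from 0.178 CPM (Emp1) to 52.5 CPM (Plekhf2), with a median of 2.22 CPM. The medians were 7.84 CPM in EpiSC_AFX, 10.8 CPM in EpiSC_AF and 21.3 CPM in ES. Relative to FS, the median ratio was 2.91 for EpiSC_AFX (range 1.77 to 33.6), 4.05 for EpiSC_AF (1.91 to 33.5) and 6.22 for ES (1.81 to 147). ES held the highest mean for 32 genes, EpiSC_AF for 6 and EpiSC_AFX for 1. The order ES, EpiSC_AF, EpiSC_AFX, FS applied to 24 genes, and EpiSC_AFX gave the smallest ratio to FS for 27. The lowest library outside FS was most often EpiSC_AFX replicate 3, for 12 genes. The gap was often narrow, since the lowest other library was a median 1.19 times the highest FS library (range 1.001 to 3.30).

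**Figure D1:**
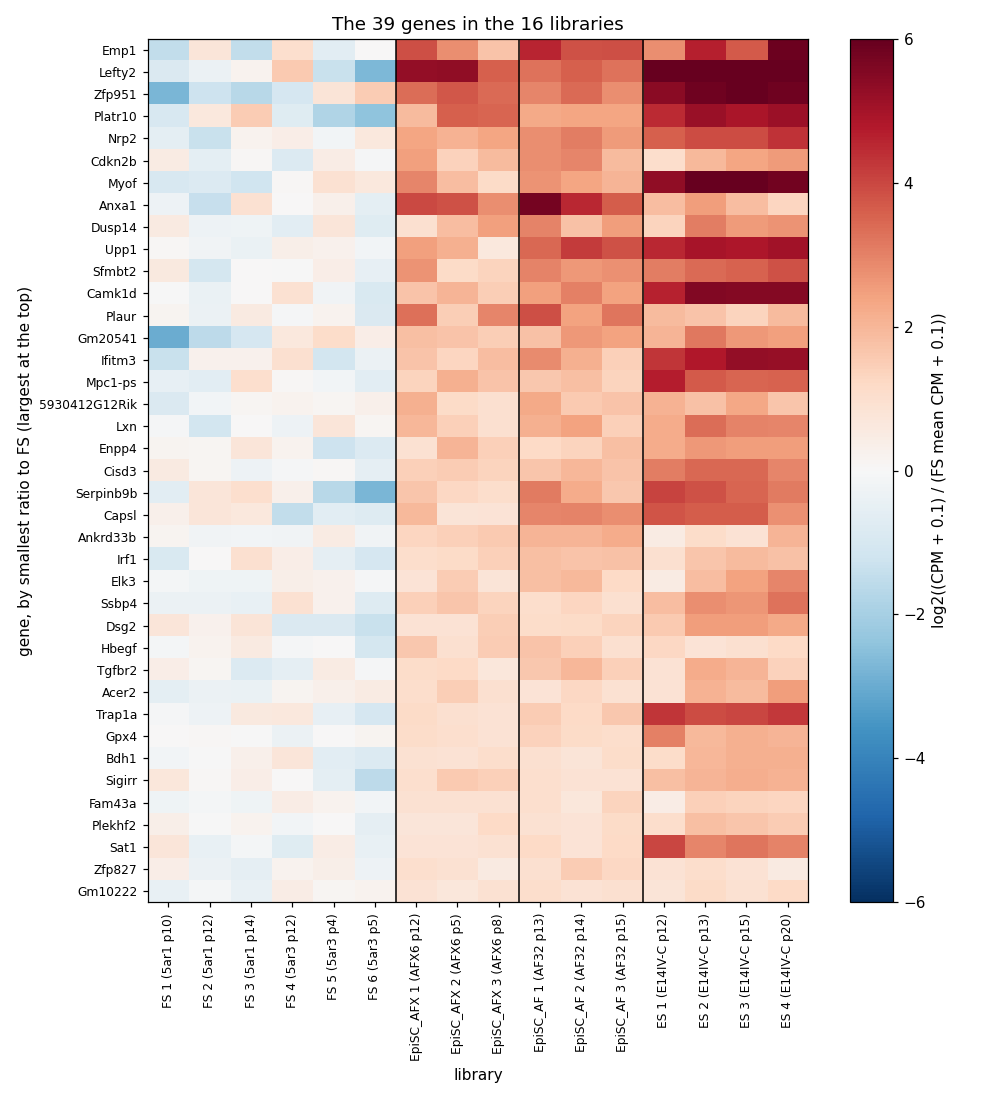
Level of each of the 39 genes (rows, by smallest ratio to FS) in each of the 16 libraries (columns, with line and passage), as log2 of the CPM plus 0.1 over the FS mean plus 0.1, with colours limited to 6 either way. The ES columns are darkest for most rows, and the EpiSC_AFX columns lie nearest to FS.

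The threshold cuts a continuous series. Just inside it were Fam43a (smallest ratio 1.90), Plekhf2 (1.86), Sat1 (1.82), Zfp827 (1.77) and Gm10222 (1.77). Just outside were Aes (1.66), Smyd2 (1.62), Gm28439 (1.59), Rai14 (1.53) and Parp14 (1.51), which met the rest of the rule. A smallest ratio of at least 3 was found for 18 genes and of at least 2 for 32.

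**Figure D2:**
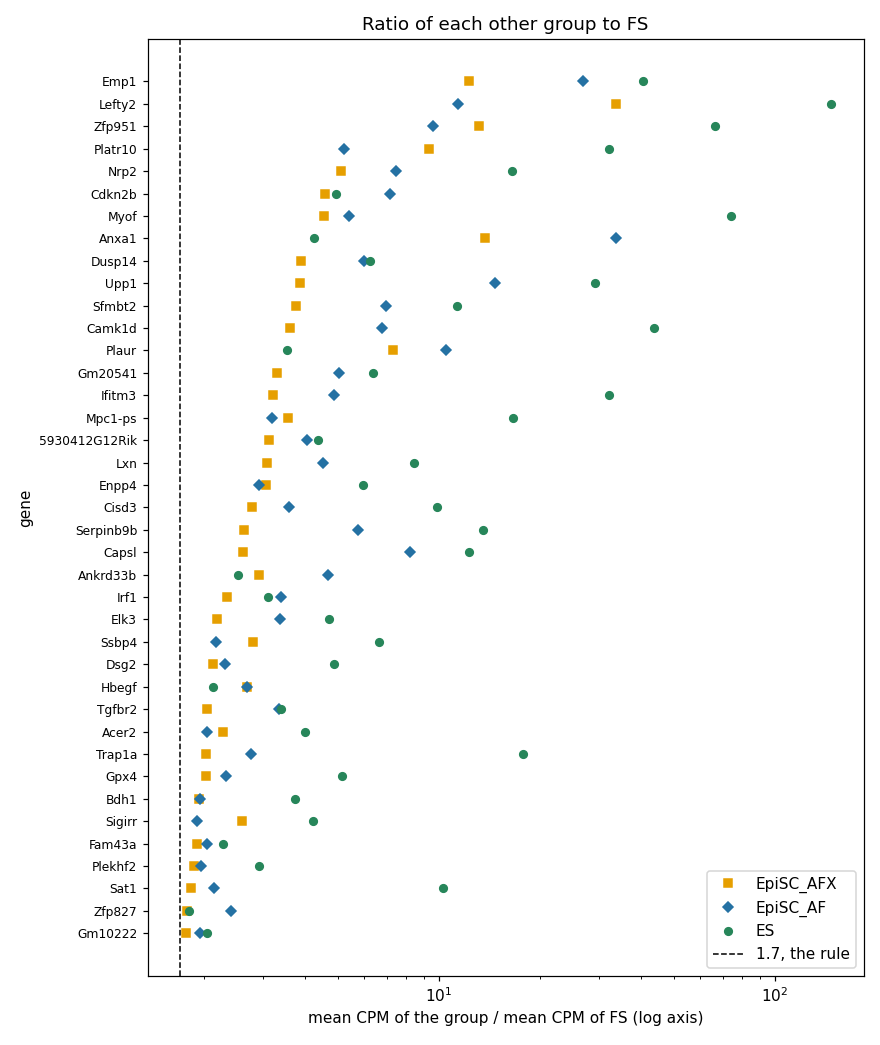
Ratio of the mean CPM in EpiSC_AFX (squares), EpiSC_AF (diamonds) and ES (circles) to the FS mean for each gene, on a log axis, with the dashed line at 1.7. Lefty2 has the largest ratio, 147 in ES, and Gm10222 lies nearest to the line.

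Among genes of secreted signals and their receptors, Lefty2 had the widest gap. It encodes a secreted antagonist of Nodal that Nodal signalling itself induces, and lies at chromosome 1, 180893108 to 180899103 (GRCm38, + strand). FS libraries had 0.0447 to 2.72 CPM (median 0.533). EpiSC_AF libraries had 9.02, 11.2 and 8.98 CPM, EpiSC_AFX libraries 36.7, 37.8 and 11.5 CPM, and ES libraries 95.9, 135, 158 and 111 CPM. No groups overlapped here, and the lowest EpiSC library was 3.30 times the highest FS library. Over 18.2% of its transcript, Lefty2 shares at least 95% identity with Lefty1, the other Lefty antagonist, so reads there could be assigned to either gene.

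Nrp2 encodes neuropilin 2, a co-receptor for semaphorins and VEGF. FS libraries ranged from 0.604 to 2.68 CPM (median 1.71), against 10.4 to 14.8 CPM in EpiSC_AF, 7.40 to 9.13 CPM in EpiSC_AFX and 21.4 to 35.4 CPM in ES. Plaur, the receptor of the protease urokinase, had 0.581 to 1.71 CPM in FS (median 1.21). It had 18.2, 6.63 and 11.4 CPM in EpiSC_AF, 12.3, 3.43 and 9.52 CPM in EpiSC_AFX, and 4.58, 3.96, 3.11 and 4.63 CPM in ES. Plaur was thus highest in EpiSC, unlike most of the 39 genes. Camk1d, a calcium-dependent kinase, had 0.581 to 2.27 CPM in FS, 3.48 to 10.1 CPM over both EpiSC groups and 30.8 to 59.0 CPM in ES. Dusp14, a phosphatase of MAP kinases, had 0.804 to 2.42 CPM in FS, and its other groups overlapped at 2.81 to 12.6 CPM.

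Tgfbr2, Hbegf and Sigirr completed the signalling genes with smaller ratios. Tgfbr2, the type II receptor of TGF-beta, averaged 2.42 ± 0.832 CPM in FS (n = 6, SD), 8.06 ± 1.65 CPM in EpiSC_AF (n = 3, SD), 4.93 ± 0.94 CPM in EpiSC_AFX (n = 3, SD) and 8.19 ± 3.29 CPM in ES (n = 4, SD). Hbegf, a ligand of the EGF receptor, was nearly level outside FS, at 6.74 ± 1.75 CPM in EpiSC_AF (n = 3, SD) and 5.34 ± 0.736 CPM in ES (n = 4, SD), against 2.52 ± 0.843 CPM in FS (n = 6, SD). Sigirr dampens signalling of interleukin-1 and Toll-like receptors and averaged 2.98 ± 1.41 CPM in FS (n = 6, SD) and 12.5 ± 1.28 CPM in ES (n = 4, SD). Its gene lies 80405 bases from Ifitm3 on chromosome 7, and Bdh1 and Fam43a, 819483 bases apart on chromosome 16, were the other neighbouring pair. The 39 genes lay on 19 chromosomes, with 4 on chromosome 11 (10.3% of the genes, against 8.11% of genes with the same minimum expression).

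Membrane and adhesion genes held some of the largest differences. Myof encodes myoferlin, a calcium-binding ferlin of membrane fusion and repair, and lies at chromosome 19, 37899036 to 38043577 (- strand). FS libraries had 1.34 to 5.96 CPM (median 2.48). Levels were 20.9, 16.9 and 13.1 CPM in EpiSC_AF, 24.2, 11.5 and 7.06 CPM in EpiSC_AFX, and 130, 316, 305 and 179 CPM in ES. ES thus stood far above both EpiSC groups, while the lowest EpiSC library was close to the highest FS library. Emp1, a tetraspan membrane protein, had the largest smallest ratio of the 39, 12.3. It had 0 counts in FS replicates 1 and 3, which at 3 counts allows up to 0.128 and 0.111 CPM, and 0.453 CPM in the highest FS library. Other libraries had 0.811 CPM (EpiSC_AFX replicate 3) to 16.6 CPM (ES replicate 4), so the level was low everywhere.

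Anxa1 encodes annexin A1, which binds phospholipids with calcium. It ranged from 0.213 to 1.45 CPM in FS (median 0.640), with 43.7, 18.7 and 9.93 CPM in EpiSC_AF, 12.6, 11.3 and 5.497 CPM in EpiSC_AFX, and 2.89, 4.50, 2.90 and 1.91 CPM in ES. As with Plaur, the order of the other groups was EpiSC_AF, EpiSC_AFX, ES. Ifitm3, an interferon-induced membrane protein also known from early germ cells, had 0.811 to 4.44 CPM in FS (median 2.21), 5.57 to 16.4 CPM over both EpiSC groups, and 45.9 to 88.4 CPM in ES. Plekhf2, an endosomal protein, was the most abundant of the 34 protein-coding genes here in FS per transcript length, at 17.3 CPM per kilobase, against 50.3 in ES.

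**Figure D3:**
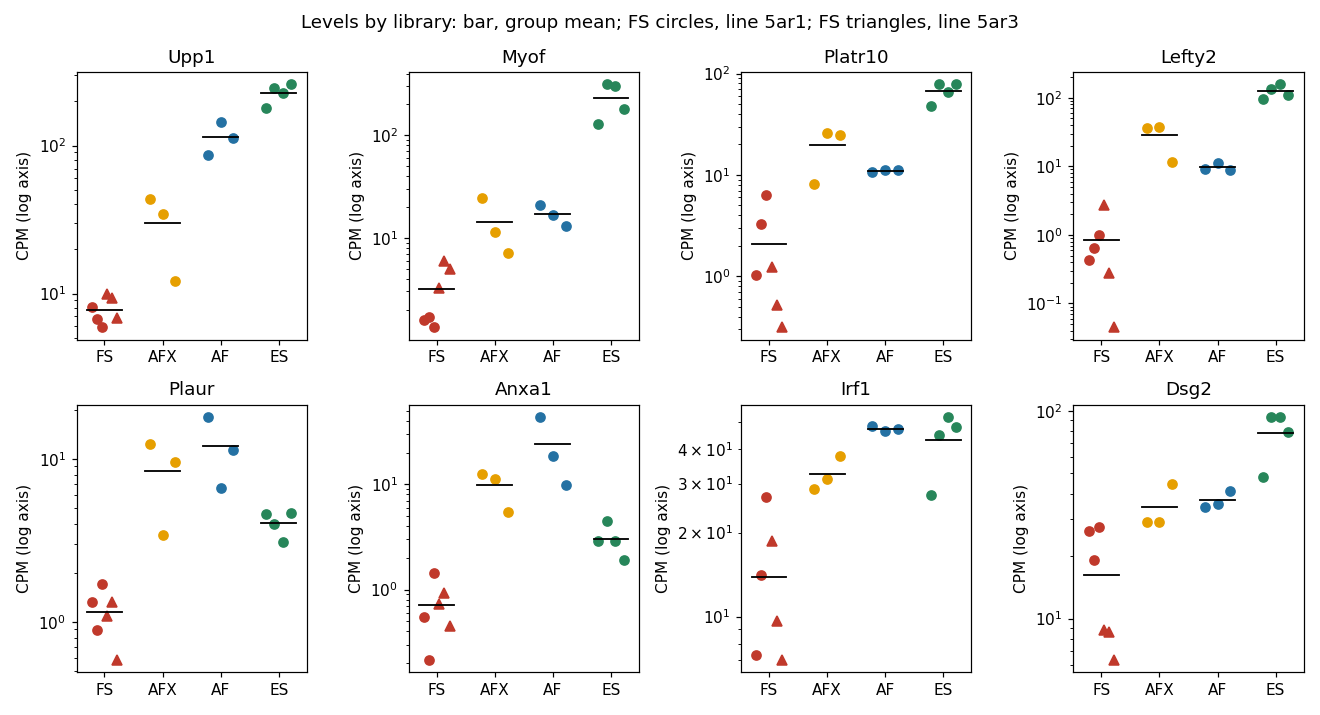
CPM of 8 genes in every library on log axes, with a bar at each group mean; FS circles are line 5ar1 and FS triangles line 5ar3. Lefty2 shows the widest gap, Plaur and Anxa1 are highest in EpiSC_AF, and the FS lines separate for Myof and Dsg2.

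Genes of transcription, chromatin and the cell cycle were 7. Zfp951, a zinc finger gene on chromosome 5, had 0 to 1.83 CPM in FS (median 0.202), 4.53 to 6.88 CPM in EpiSC_AF, 6.68 to 8.68 CPM in EpiSC_AFX and 28.6 to 44.7 CPM in ES. Sfmbt2, a Polycomb-related gene that is imprinted in the mouse and known from trophoblast, had 2.56 to 8.28 CPM in FS (median 5.49). It had 43.8, 33.9 and 37.2 CPM in EpiSC_AF, 35.9, 12.4 and 13.9 CPM in EpiSC_AFX, and 47.5 to 78.4 CPM in ES. Cdkn2b encodes the CDK inhibitor p15 and was rare in all groups, at 0.227 to 0.726 CPM in FS and 1.12 to 4.38 CPM elsewhere. Irf1, Elk3, Ssbp4 and Zfp827 had smallest ratios of 2.34, 2.18, 2.16 and 1.77. Irf1, an interferon response factor, ranged from 6.97 to 26.9 CPM within FS, against 27.3 CPM in the lowest other library.

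Metabolic and redox genes were also 7, and all 7 had their highest mean in ES. Upp1 encodes uridine phosphorylase, which splits uridine into uracil and a ribose phosphate, and lies at chromosome 11, 9118103 to 9136170 (+ strand). FS libraries had 5.90 to 9.92 CPM (median 7.50). Levels were 86.1, 145 and 113 CPM in EpiSC_AF, 43.8, 34.7 and 12.1 CPM in EpiSC_AFX, and 179, 244, 228 and 261 CPM in ES. The 4 groups did not overlap, and in ES Upp1 had the highest level per length of these 34 protein-coding genes, at 116 CPM per kilobase. Enpp4, a nucleotide pyrophosphatase, and Cisd3, a mitochondrial iron-sulfur protein, had smallest ratios of 2.91 and 2.77. Acer2 (a ceramidase), Gpx4 (which reduces lipid peroxides), Bdh1 (which interconverts ketone bodies) and Sat1 (which acetylates polyamines) had 2.03, 2.02, 1.93 and 1.82. For Sat1 the mean was 8.58 ± 3.61 CPM in FS (n = 6, SD), 15.6 ± 0.769 CPM in EpiSC_AFX (n = 3, SD), 18.4 ± 2.67 CPM in EpiSC_AF (n = 3, SD) and 88.4 ± 35.1 CPM in ES (n = 4, SD). In ES, replicate 1 had 140 CPM and the others 65.9 to 79.5 CPM.

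Both protease inhibitors, Lxn and Serpinb9b, were highest in ES, with smallest ratios of 3.08 and 2.62. Lxn encodes latexin, an inhibitor of carboxypeptidases, and had 0.320 to 1.41 CPM in FS and 1.65 to 9.09 CPM elsewhere. Of the other 4 genes, Trap1a, an X-linked gene of a tumour rejection antigen, differed most between ES and the rest, with 3.17 to 9.88 CPM in FS, 11.6 to 19.98 CPM over both EpiSC groups and 99.2 to 128 CPM in ES. Capsl, Ankrd33b and Fam43a had smallest ratios of 2.61, 2.53 and 1.90, and for Ankrd33b the lowest other library was 1.001 times the highest FS library.

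Of the non-coding genes, Platr10 belongs to a family of transcripts named for their association with pluripotency, and lies at chromosome 3, 75647446 to 75655731 (- strand). FS libraries had 0.313 to 6.27 CPM (median 1.12). Levels were 10.6, 11.1 and 11.3 CPM in EpiSC_AF, 8.06, 26.0 and 25.0 CPM in EpiSC_AFX, and 48.3, 78.7, 65.1 and 78.5 CPM in ES. 5930412G12Rik, the other long non-coding RNA, was rare throughout, at 0.341 to 0.894 CPM in FS and 1.44 to 3.95 CPM elsewhere. Gm20541, an unprocessed pseudogene, had 0.213 to 5.32 CPM in FS and 6.79 to 21.9 CPM elsewhere.

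The remaining pseudogenes, and a few coding genes, share sequence with other genes. Over its 294 bases Gm10222 is identical to the mitochondrial gene mt-Nd4l, which was left out by name. Gm10222 averaged 35.3, 68.9, 62.6 and 72.3 CPM in FS, EpiSC_AF, EpiSC_AFX and ES, and mt-Nd4l averaged 35.3, 69.04, 63.0 and 73.9 CPM, so they cannot be told apart here. Mpc1-ps is 99.7% identical to Mpc1 along its 330 bases, and Mpc1 itself averaged 0.756 CPM in FS and 7.98 CPM in ES. Of Gpx4, 73.7% of the transcript matched another gene at 95% identity or more. In all, 12 of the 39 genes had such a match of at least 100 bases, covering over 50% of the transcript for 3, and their values are uncertain to that extent. Exons of 8 genes overlap those of another gene, mostly on the opposite strand, and the strand setting of the counting is not given in the sources used here.

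The rule treats FS as a single group, so whether its lines differed in these genes is a separate question. The test was edgeR's quasi-likelihood test with Benjamini-Hochberg adjustment over 18555 genes. By it, 6 of the 39 genes differed between 5ar1 and 5ar3, 2 higher and 4 lower in 5ar1. Among all genes 3.88% were called, 1.86% higher and 2.02% lower in 5ar1. The median log2 fold change was -0.08 for the 39 genes and -0.01 for all genes, and the median size was 0.44 and 0.29. Of the 6, Zfp951 passed the low-count filter only through its levels outside FS, and Gm10222 cannot be told apart from mt-Nd4l. With only the FS libraries fitted, 37 of the 39 genes were tested and 3 were called, where 2.25% of all genes were called. Both lines lay below every other group for all 39 genes, as the rule requires.

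Dsg2, a cadherin of desmosomes, had 26.3, 19.1 and 27.5 CPM in line 5ar1 and 8.84, 8.66 and 6.30 CPM in line 5ar3. The lines did not overlap, and Dsg2 was higher in 5ar1 by 1.56 (log2, SE 0.23, edgeR adjusted p 8.15e-04). Gm20541 had 0.213, 0.747 and 1.15 CPM in 5ar1 and 3.72, 5.32 and 3.17 CPM in 5ar3 (log2 fold change -2.55, SE 0.39, edgeR adjusted p 0.00118). These were the only calls of the 6 kept under all 11 alternatives tried for this comparison.

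Zfp951 had 0, 0.178 and 0.111 CPM in 5ar1 and 0.227, 1.05 and 1.83 CPM in 5ar3 (log2 fold change -3.40, SE 0.69, edgeR adjusted p 0.00994). Myof had 1.58, 1.71 and 1.34 CPM in 5ar1 and 3.26, 5.96 and 4.96 CPM in 5ar3 (-1.70, SE 0.41, edgeR adjusted p 0.0274). Neither overlapped between the lines. The Zfp951 counts were 0, 5 and 3 in 5ar1 and 5, 26 and 41 in 5ar3, and with the FS libraries alone this gene and Emp1 did not pass the low-count filter and were not tested. Both entered the fit of all libraries through their levels outside FS, so the Zfp951 call rests on few counts. Platr10 went the other way, with 1.02, 3.27 and 6.27 CPM in 5ar1 and 1.22, 0.524 and 0.313 CPM in 5ar3, and here the lines overlapped (2.35, SE 0.59, edgeR adjusted p 0.0339). Gm10222 had 26.0, 32.8 and 25.8 CPM in 5ar1 and 48.2, 38.97 and 40.3 CPM in 5ar3 (-0.65, SE 0.17, edgeR adjusted p 0.0370). Over the alternatives (10 for Zfp951 and 11 for the others), the edgeR or DESeq2 adjusted p reached 0.0534 for Zfp951, 0.123 for Myof, 0.218 for Platr10 and 0.156 for Gm10222. The Zfp951 call was lost without FS replicate 3 or 6, the Myof and Platr10 calls without FS replicate 2, 3, 5 or 6, and the Gm10222 call without any FS library but replicate 2. With no low-count filter the Myof and Platr10 calls were lost too (edgeR adjusted p 0.102 and 0.139). With total counts the Myof and Gm10222 calls were lost (edgeR adjusted p 0.0588 and 0.0888), and with only the FS libraries fitted the Platr10 and Gm10222 calls were lost (edgeR adjusted p 0.130 and 0.141).

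The lines also differed in markers of another cell type. The summed level of 7 definitive endoderm genes was 0.853 to 1.58 CPM in 5ar1 and 7.87 to 11.01 CPM in 5ar3, against 2.25 to 787 CPM in EpiSC and 2.64 to 6.86 CPM in ES. Each of the 7 had counts in at least 1 FS library, and Sox17 reached 0.589 CPM. The largest FS levels were those of Cer1 (4.03 CPM) and Foxa2 (3.80 CPM), both in 5ar3, while Gata4 and Gata6 overlapped between the lines. The summed level of 8 primitive streak genes overlapped too, at 20.5 to 54.0 CPM in 5ar1 and 38.7 to 60.2 CPM in 5ar3. None of these sums was tested between the lines. Passages differed as well, since 5ar1 was taken at 10 to 14 and 5ar3 at 4, 5 and 12. The part of endoderm cells or of passage in the line differences was not tested.

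**Figure D4:**
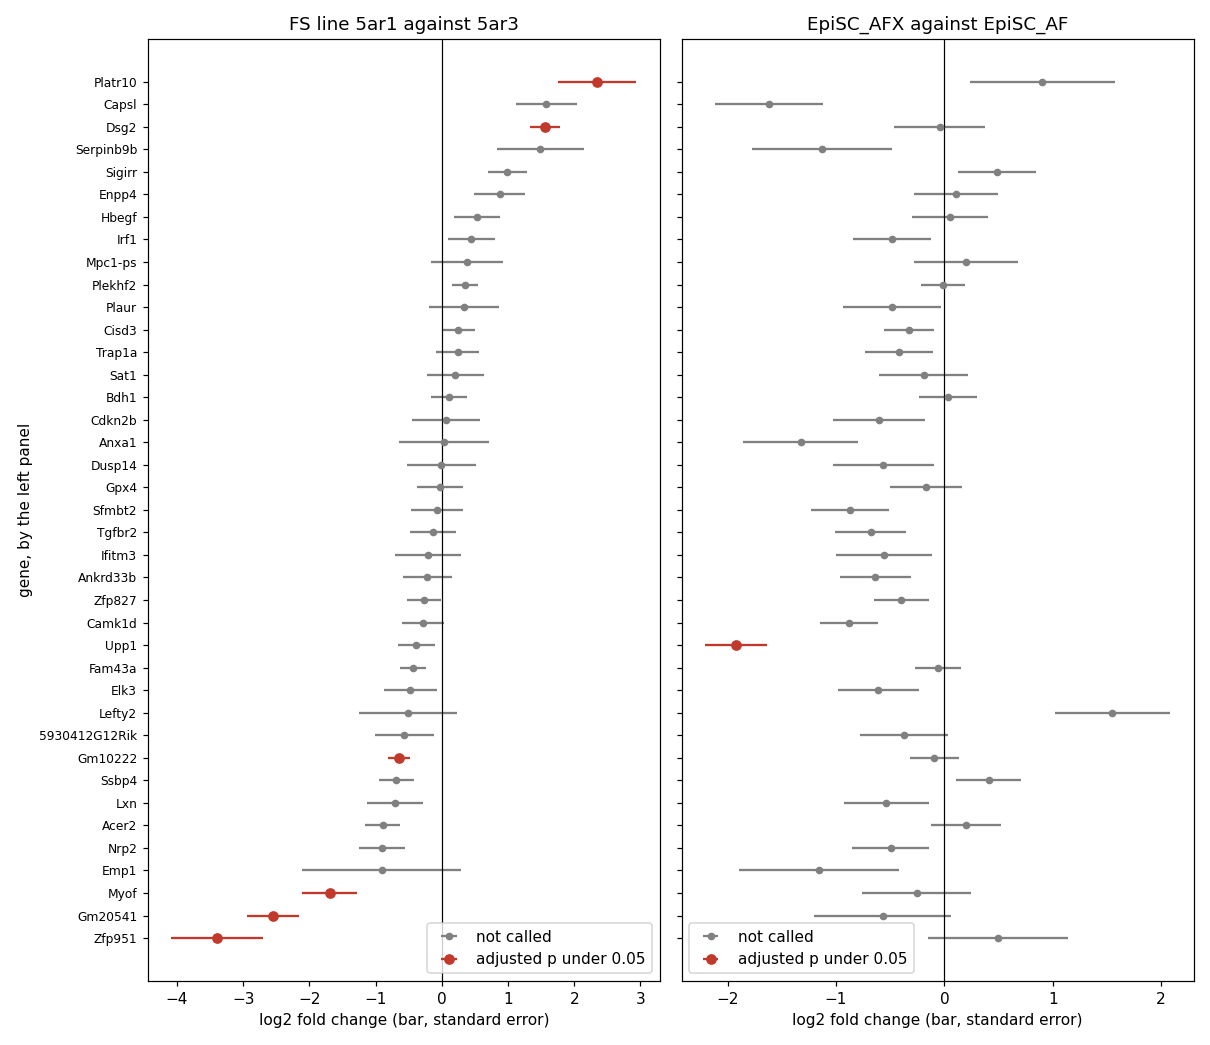
Log2 fold change with its standard error for the 39 genes between FS lines 5ar1 and 5ar3 (left, positive is higher in 5ar1) and between EpiSC_AFX and EpiSC_AF (right, positive is higher in EpiSC_AFX). Red marks an edgeR adjusted p under 0.05, for 6 genes on the left and for Upp1 alone on the right.

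Next the EpiSC groups were compared with each other, which the rule did not do. Upp1 was the single gene called of the 39, where 4.26% of all genes were called (1.43% higher and 2.83% lower in EpiSC_AFX). Upp1 was lower in EpiSC_AFX (log2 fold change -1.92, SE 0.29, edgeR adjusted p 6.62e-04), with no overlap between 12.1 to 43.8 CPM and 86.1 to 145 CPM, and was called under all 12 alternatives. The fold change was negative for 29 genes, with a median of -0.40 against 0 for all genes. For Lefty2 the difference had the opposite sign, 1.55 (SE 0.53, edgeR adjusted p 0.123), with 8.98 to 11.2 CPM in EpiSC_AF and 11.5 to 37.8 CPM in EpiSC_AFX. Camk1d (-0.88) and Capsl (-1.62) had edgeR adjusted p values of 0.0738 and 0.0788.

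EpiSC libraries differed in endoderm markers too. The 7 endoderm genes summed to 240 to 787 CPM in EpiSC_AF, and to 167, 6.81 and 2.25 CPM in EpiSC_AFX replicates 1, 2 and 3. Replicate 1 of EpiSC_AFX had the highest level of its group for Upp1 (43.8 CPM), Myof (24.2 CPM) and Sfmbt2 (35.9 CPM). The same held for Emp1 (3.91 CPM), Plaur (12.3 CPM), Cdkn2b, Anxa1, Gm20541, 5930412G12Rik, Lxn, Serpinb9b, Capsl, Hbegf, Trap1a, Gpx4 and Zfp827. For the other genes another library of the group was higher. Lefty2 and Platr10 were higher in replicate 2. Replicate 1 had the lowest level of its group for Zfp951, Platr10, Dusp14, Mpc1-ps, Enpp4, Ankrd33b, Irf1, Sigirr and Sat1. For 5 genes replicate 1 of EpiSC_AFX was the lowest library outside FS. Without this library 33 genes met the rule, and 5930412G12Rik, Capsl, Cdkn2b, Emp1, Lxn and Zfp827 no longer did. Of the genes lost, only Zfp827 no longer met the fold. The others still met it, but their EpiSC_AFX mean fell under the minimum of 2 CPM. The part of endoderm cells in these levels was not tested.

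Against ES, most of the 39 genes were lower in EpiSC. In EpiSC_AF 23 were called lower and 2 higher, or 64.1% of the 39, where 56.7% of all genes were called, 29.7% higher and 27% lower. In EpiSC_AFX 27 were called lower and 1 higher, or 71.8%, where 54.7% of all were called, 28.5% higher and 26.2% lower. The median log2 fold change was -1.18 for EpiSC_AF and -1.38 for EpiSC_AFX, against 0.01 over all genes in either. These comparisons share the ES libraries, and 24 genes were called in both and 10 in neither. With total counts as the only scaling the share of all calls that were higher in EpiSC_AF moved from 52.4% to 66.3%, and in EpiSC_AFX from 52.0% to 64.7%. The median of all genes then moved to 0.29 and 0.25 and that of the 39 genes to -0.93 and -1.19, and none of the called genes changed sign.

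Myof differed most from ES, with log2 fold changes of -4.01 in EpiSC_AF (SE 0.54, edgeR adjusted p 9.40e-06) and -4.27 in EpiSC_AFX (SE 0.55, edgeR adjusted p 5.81e-06). In EpiSC_AF it was followed by Lefty2 (-3.97), Zfp951 (-3.06) and Trap1a (-3.01), and in EpiSC_AFX by Camk1d (-3.83), Ifitm3 (-3.52) and Trap1a (-3.43). Anxa1 was higher than in ES in EpiSC_AF (2.71, SE 0.51, edgeR adjusted p 2.16e-04) and in EpiSC_AFX (1.39, SE 0.50, edgeR adjusted p 0.0264), and Plaur in EpiSC_AF (1.27, SE 0.43, edgeR adjusted p 0.0177). The call of Anxa1 in EpiSC_AFX was lost without EpiSC_AFX replicate 1 or 2 or ES replicate 3 or 4 (edgeR adjusted p up to 0.0942). That of Plaur was lost without EpiSC_AF replicate 1 or ES replicate 3 (edgeR adjusted p up to 0.161). All 7 metabolic genes were called lower in both EpiSC groups, as were Lxn and Serpinb9b. In EpiSC_AF, Serpinb9b was called in 7 of 13 alternatives and was lost without EpiSC_AF replicate 2 or 3 or ES replicate 1 or 2 (edgeR adjusted p up to 0.143), and Lxn was lost without EpiSC_AF replicate 3 (edgeR adjusted p 0.0789). In EpiSC_AFX, Enpp4 was lost without EpiSC_AFX replicate 1 (edgeR adjusted p 0.0598). With total counts the Serpinb9b and Lxn calls in EpiSC_AF and the Enpp4 and Acer2 calls in EpiSC_AFX were lost. Hbegf, Irf1, Zfp827, Cdkn2b and Dusp14 were among the 10 called in neither.

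Other genes of the pathways these genes belong to were examined in the same fit, with the 39 genes and those left out by name set aside. FS was compared with EpiSC_AF, EpiSC_AFX and ES, where 16.6%, 5% and 62.8% of all genes were called (8.81%, 2.1% and 29.9% lower in FS), and these comparisons share the FS libraries. Of 16 other tested genes of the Nodal and activin pathway, 5 were lower and 1 higher in FS than in EpiSC_AF, 4 lower and 0 higher than in EpiSC_AFX, and 4 lower and 7 higher than in ES. Median log2 fold changes were -0.20, 0.05 and 0.04, where all genes had 0.04 in each. Nodal, the ligand, was called lower in FS in all 3 comparisons, with 8.69 ± 8.13 CPM in FS (n = 6, SD), 29.5 ± 10.5 CPM in EpiSC_AF (n = 3, SD), 35.6 ± 4.001 CPM in EpiSC_AFX (n = 3, SD) and 48.2 ± 13.2 CPM in ES (n = 4, SD). Its edgeR adjusted p was 0.0363 against EpiSC_AF and 0.0380 against EpiSC_AFX. Leaving out any library of either EpiSC group ended the call against that group, as did FS replicate 1 or 4. The call against EpiSC_AFX was also lost without FS replicate 2, EpiSC_AF replicate 1 or 3 or ES replicate 2, 3 or 4. Over all alternatives the adjusted p reached 0.156 and 0.109.

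Lefty1, the other Lefty antagonist, averaged 11.7 ± 9.62 CPM in FS (n = 6, SD), 169 ± 79.5 CPM in EpiSC_AF (n = 3, SD), 132 ± 70.4 CPM in EpiSC_AFX (n = 3, SD) and 18.8 ± 9.20 CPM in ES (n = 4, SD). It was lower in FS than in EpiSC_AF (log2 fold change -3.94, SE 0.63, edgeR adjusted p 4.23e-04) and EpiSC_AFX (-3.60, SE 0.62, edgeR adjusted p 0.00312). Against ES the difference was -1.01 (SE 0.58, edgeR adjusted p 0.140), whereas Lefty2 had its highest level in ES. Cfc1, a Nodal co-receptor, was lower in FS than in EpiSC_AF (-8.42, SE 1.06, edgeR adjusted p 5.94e-05). It averaged 0.0994 ± 0.0920 CPM in FS (n = 6, SD) and 33.1 ± 15.7 CPM in EpiSC_AF (n = 3, SD). Gdf3, a related ligand, fell by 7.79 on the log2 scale against ES, and Skil, a feedback inhibitor of SMADs, was higher in FS than in ES by 1.77 and lower than in EpiSC_AFX (-0.78, not called without EpiSC_AFX replicate 2 or 3).

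In the retinoic acid list of 17 tested genes, 7 were lower and 1 higher in FS than in EpiSC_AF, 0 lower and 1 higher than in EpiSC_AFX, and 5 lower and 7 higher than in ES, with medians of -0.72, -0.18 and 0.84. Nrip1, a corepressor of nuclear receptors, was lower than in EpiSC_AF (-1.48). In the Wnt list of 12 genes, 7, 1 and 6 were lower and 0, 0 and 3 higher in FS than in EpiSC_AF, EpiSC_AFX and ES, with medians of -1.22, -0.19 and -0.89. Axin2, a feedback inhibitor of Wnt signalling, was lower than in EpiSC_AF (-1.52) and ES (-3.53).

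Beside Upp1, 16 genes of pyrimidine synthesis and salvage were tested. Of these 0 were lower and 1 was higher in FS than in EpiSC_AF, 0 were called against EpiSC_AFX, and 4 were lower and 5 higher than in ES. Their medians were -0.02, -0.01 and -0.13. Uck2, a uridine kinase that uses the same substrate as Upp1, averaged 307 ± 51.3 CPM in FS (n = 6, SD), 263 ± 12.02 CPM in EpiSC_AF (n = 3, SD), 297 ± 17.4 CPM in EpiSC_AFX (n = 3, SD) and 372 ± 73.1 CPM in ES (n = 4, SD).

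Beside Myof, the only ferlin with enough counts was Dysf, which encodes dysferlin. It was higher in FS than in ES by 4.78 (log2, SE 0.32, edgeR adjusted p 8.80e-10) and than in EpiSC_AF by 0.93 (SE 0.27, edgeR adjusted p 0.0240). Its means were 19.1 ± 5.89 CPM in FS (n = 6, SD), 17.1 ± 2.85 CPM in EpiSC_AFX (n = 3, SD), 9.21 ± 2.99 CPM in EpiSC_AF (n = 3, SD) and 0.541 ± 0.223 CPM in ES (n = 4, SD). Against EpiSC_AF the call was lost without EpiSC_AF replicate 2 or 3, where the edgeR adjusted p reached 0.139 over the alternatives.

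Beside Platr10, 23 other Platr genes were tested. In FS 19 were lower and 3 higher than in ES, 3 were lower than in EpiSC_AF and 1 was lower than in EpiSC_AFX, with medians of -5.005, -0.03 and 0. Platr14 was lower than in ES (-1.75) and EpiSC_AF (-1.26, not called without EpiSC_AF replicate 1 or 3), with 25.3 ± 15.3 CPM in FS (n = 6, SD). Platr22 was lower than in EpiSC_AFX (-0.99, edgeR adjusted p 0.0468) and EpiSC_AF (-0.87), and higher than in ES (2.31). These differences were called in 7 and 11 of 21 alternatives, respectively, for EpiSC_AFX and EpiSC_AF.

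Lists of cell type markers gave the setting of these values. In FS 10 of 10 naive genes were lower than in ES, with 0 called against EpiSC_AFX and 2 lower and 1 higher against EpiSC_AF. The 7 endoderm genes were all lower in FS than in EpiSC_AF, and 3 were lower than in EpiSC_AFX, of which 0 were called without EpiSC_AFX replicate 1. Of 6 primitive streak genes, 5 were lower than in EpiSC_AF and 2 lower than in EpiSC_AFX. Of 7 fibroblast genes, which include Vim, 5 were lower and 1 higher than in EpiSC_AF, and 5 were higher than in ES. All 8 fibroblast genes listed, with 1 that was not tested, summed to 226 to 523 CPM in FS and 146 to 303 CPM in ES. In EpiSC_AF the sums were 612 to 864 CPM and in EpiSC_AFX 173 to 290 CPM. Vim made up most of the sums in every group, with means of 319, 641, 224 and 239 CPM in FS, EpiSC_AF, EpiSC_AFX and ES. The 6 core pluripotency genes had 2 lower and 1 higher in FS than in EpiSC_AF, 0 called against EpiSC_AFX and 2 each way against ES. Of 8 formative genes 7 were higher and 1 lower in FS than in ES, 1 was higher than in EpiSC_AF and 0 were called against EpiSC_AFX. The 4 neuroectoderm genes were all higher than in ES, with 0 called against EpiSC_AF and 1 each way against EpiSC_AFX.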

How the data were processed

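Raw counts per gene for 16 libraries were deposited by the authors as a single table with gene symbols and Ensembl identifiers. Per the submitters' processing notes, Trim Galore, TopHat2 2.1.0 and featureCounts 1.5.0 were used with mm10. The annotation release and strand setting are not given in the sources used here, and 6 columns that match no sample were not used. Coordinates come from GENCODE mouse release M21 (GRCm38, the assembly named mm10), which held 33860 of the 34042 identifiers.

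CPM used column totals. Tests used edgeR 4.0.16 in R 4.3.3 on the deposited counts of all 16 libraries (filterByExpr by group, TMM, robust quasi-likelihood), with a mean per group, or a mean per line for 5ar1 against 5ar3. A gene counted as called below a threshold of 0.05 on its p, adjusted by Benjamini-Hochberg over 18555 genes. DESeq2 1.42.0 was an alternative, with other scalings, no filter, only the groups compared, a mean per line, single FS lines and leaving out each library. Tested on simulated counts of 18555 genes, the line comparison recovered 30% of changes of 1 and 78.7% of changes of 2 (log2), and EpiSC_AFX against EpiSC_AF recovered 42.9% and 81.1%. False calls were 5 and 13. Each simulated gene had its mean level over all 16 libraries, and the 39 genes lie lower in FS. The recovery between the FS lines was thus not measured at their FS levels. Transcripts were compared with BLAST 2.17.0.

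The members, lists and motifs were chosen with earlier results of these data known. Genes named were the 3 markers, the 20 with the largest smallest ratio, all called between lines, the 4 largest calls each way in the other comparisons, the 5 nearest each side of the threshold and genes of the lists. Other members named, and which list genes are written out, were chosen after their values were seen. Floors of 3 counts cover counting error only.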

Additional observations from a re-analysis of the deposited data

Results flagged for a closer look

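Each of the 39 genes was examined for a library far from the rest of its group in FS and ES, the groups of 4 to 10 libraries. Of 78 such sets, 7 had a library whose gap to its nearest neighbour exceeded Dixon's limit for its group size, where chance gives about 1 in 20. Of the 7, 4 were ES replicate 1, the library with the highest share of mt-Rnr2.

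In ES replicate 1, Gpx4 was at 100.8 CPM against 47.8 to 55.3 CPM in the others, and Mpc1-ps was at 36.9 CPM against 16.02 to 17.8 CPM. Camk1d was at 30.8 CPM there, against 57.4 to 59.0 CPM. Fam43a was at 10.6 CPM, against 19.3 to 20.8 CPM. In FS replicate 4, Lefty2 was at 2.72 CPM against 0.0447 to 1.002 CPM in the other FS libraries, and Camk1d was at 2.27 CPM against 0.581 to 1.19 CPM. Mpc1-ps in FS replicate 3 was at 2.78 CPM, against 0.804 to 1.40 CPM.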

How the results depend on the processing

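The number of genes meeting the rule was 39, and 33 to 49 when a library was left out, with 28 of the 39 kept each time. A minimum of 5 CPM gave 25 genes, no condition on library overlap 81, line 5ar1 alone 62 and line 5ar3 alone 100. Genes called between the FS lines were 6, and 3 when only these lines were fitted or without FS replicate 3, 5 or 6 (3 to 8 when a library was left out, and 9 with the DESeq2 Wald test). For EpiSC_AFX against EpiSC_AF, where 1 was called, the DESeq2 Wald test gave 3, fitting only these groups 5 and a mean per line 2. Of all genes, 7.45%, 13.6% and 6.61% were called in these settings, respectively. Without a library 1 to 3 were called, with 3 without EpiSC_AFX replicate 1, where 1.83% to 4.83% of all genes were called. Counts against ES stayed within 1.5 times under every alternative tried, and 21 of 25 and 21 of 28 calls were kept in all of them.

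List genes called between FS and EpiSC_AFX were 15, but 8 with total counts, 24 with the DESeq2 Wald test, 24 with line 5ar3 alone and 7 to 16 without a library, and 2 of the 15 were kept throughout. The lower counts came without EpiSC_AFX replicate 1 (7) and without FS replicate 2, ES replicate 2 or ES replicate 3 (9 each). Without EpiSC_AFX replicate 1, Sox17 and Lhx1 had log2 fold changes of 1.37 and 0.73 between FS and EpiSC_AFX, opposite to those with it (-4.22 and -3.57, and down to -4.79 and -4.13 without another library). With line 5ar1 alone Sox1 had -0.22 between FS and ES, against 3.13 with both lines. The cause was not tested. No paired analysis was possible because the replicate numbers were assigned in accession order and mark no shared source.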
